A study of Mus musculus with 12 samples.

Results

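The response to interferon alpha given alone was read from 3 libraries labelled mIFNalpha and 3 untreated libraries. All carry the labels Hepa1-6, a mouse hepatoma cell line, and liver as the tissue. Genes with at least 10 counts in at least 3 of these 6 libraries were taken, which left 13698 of the 21878 genes of the count table. Of the 8180 others, 4346 had no count in any of the 6 libraries. Just inside this limit were 108 genes whose third-highest count was exactly 10, and just outside were 101 genes where it was 9. The series also holds 3 libraries given an anti-PD-1 antibody, which blocks the checkpoint receptor PD-1, and 3 given the antibody and mIFNalpha together, called the combination below. They served as a second comparison of mIFNalpha present against absent. The labels used here name no dose, route, duration, strain or age. The labels do not say whether replicates were separate animals or cultures, so p-values measure only the spread between these libraries, which may be technical.

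Type I interferons, a family that includes interferon alpha, bind a receptor made of Ifnar1 and Ifnar2. The kinases Jak1 and Tyk2 then phosphorylate STAT proteins, which join Irf9 to form the factor ISGF3. ISGF3 binds the interferon-stimulated response element, or ISRE, in the promoters of interferon-stimulated genes, whose products restrict viral RNA, tag proteins and sense nucleic acids. Usp18 and the SOCS proteins damp the signal, and in the liver type I interferon is known for its antiviral use. The second pathway described here is canonical Wnt signalling, in which beta-catenin (Ctnnb1) acts through TCF factors and switches on several of its own inhibitors.

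Promoters of 4 interferon-stimulated genes whose values are given below show where the ISRE core lies. They are RefSeq sequences of GRCm38.p6, the assembly also called mm10, and run from 250 bases before to 50 bases after the annotated start in the direction of the gene. Capitals mark the core, which is GAAA, any 2 bases and GAAA again, or its reverse complement. Ifit1 (chr19:34640639-34640938, plus strand) and Ifit3 (chr19:34583279-34583578, plus strand) have 2 matches each, Isg15 (chr4:156200769-156201068, minus strand) has 3 that overlap, and Oas3 (chr5:120777610-120777909, minus strand) has 1.
Ifit1: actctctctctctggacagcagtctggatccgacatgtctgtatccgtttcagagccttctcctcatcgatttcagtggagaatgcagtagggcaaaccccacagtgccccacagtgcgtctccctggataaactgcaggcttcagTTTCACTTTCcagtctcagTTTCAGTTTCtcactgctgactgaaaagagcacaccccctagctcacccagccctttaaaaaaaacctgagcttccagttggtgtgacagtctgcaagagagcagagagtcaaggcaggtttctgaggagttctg
Ifit3: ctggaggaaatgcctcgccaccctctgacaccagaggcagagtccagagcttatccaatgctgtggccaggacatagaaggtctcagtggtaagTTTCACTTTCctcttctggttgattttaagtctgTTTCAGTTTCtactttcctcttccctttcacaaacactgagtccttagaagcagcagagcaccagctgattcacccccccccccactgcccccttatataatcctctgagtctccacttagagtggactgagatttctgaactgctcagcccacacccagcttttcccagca
Isg15: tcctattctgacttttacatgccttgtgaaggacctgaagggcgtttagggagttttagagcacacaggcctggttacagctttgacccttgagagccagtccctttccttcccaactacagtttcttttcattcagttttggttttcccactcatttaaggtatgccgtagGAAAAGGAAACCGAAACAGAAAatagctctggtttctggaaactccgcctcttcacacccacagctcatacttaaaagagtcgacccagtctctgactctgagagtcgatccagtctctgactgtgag
Oas3: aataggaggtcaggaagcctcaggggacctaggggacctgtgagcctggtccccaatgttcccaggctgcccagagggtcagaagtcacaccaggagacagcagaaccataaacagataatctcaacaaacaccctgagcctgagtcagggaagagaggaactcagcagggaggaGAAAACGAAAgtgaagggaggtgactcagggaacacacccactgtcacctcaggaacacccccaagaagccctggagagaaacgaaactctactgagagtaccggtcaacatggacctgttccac
The core was present in 1131 of 32851 RefSeq promoters of this length, or 3.44%. Of 86 interferon-stimulated genes with enough counts, 70 had a promoter in that table and 35 of these (50%) held the core. Genes were counted once, if any of their promoters held the core, while the 3.44% counts single promoters. A match describes the letters of this window only and is not a binding site.

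Sequencing depth was 31.3 to 38.5 M counts a library, and a count of 3 was worth 0.0784 to 0.101 CPM (counts per M, scaled with TMM). The hepatoma marker Afp, a fetal serum protein, was abundant, with 9577 to 10793 CPM in untreated and 7765 to 11147 CPM in mIFNalpha libraries. Albumin, Alb, which was listed with the adult hepatocyte genes, had 9492 to 11714 CPM over all 6. Transcripts of other cells were present as well, since the leukocyte phosphatase Ptprc had 30.3 to 48.6 CPM in untreated and 21.2 to 50.2 CPM in mIFNalpha libraries. In bulk RNA, fewer cells of a type and less RNA per cell cannot be told apart. On the first principal component of all 12 libraries, which held 55.7% of the variance, untreated replicate 3 (-18.7) stood apart from the other untreated libraries (-69.4 and -67.3) and beside the mIFNalpha libraries (-24.6 to -22.5). On the second, which held 16.3%, mIFNalpha replicate 1 (-66.1) stood apart from replicates 2 and 3 (10.4 and 13.8). For the members that differ most between these libraries and their groups, values without the library are given.

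Interferon-stimulated genes of the Ifit, Schlafen and Oas families were higher in mIFNalpha libraries, and Wnt feedback and target genes were lower, but no single gene passed the test. Libraries given the antibody alone lay on the same side of untreated libraries in the interferon-stimulated, Ifit, Schlafen and Wnt medians given further below. edgeR's quasi-likelihood test called 0 of 13698 genes (0%), with a smallest adjusted p of 0.754. At an unadjusted p below 0.05 there were 743 genes (5.42%), 297 higher (2.17%) and 446 lower (3.26%). The shares of 2.17% and 3.26% are the background for the counts of list members at that p given below. DESeq2 called 25 of 13679 genes (0.183%), 12 higher and 13 lower, and limma on the deposited FPKM values called 0. Of the 25 genes, 5 were interferon-stimulated and 4 were Wnt genes, among them Ifit1, Slfn1, Slfn4, Notum and Nkd1. On simulated data with 200 changed genes, DESeq2 made 46 false calls and edgeR 7. The simulation drew genes independently, with the spread estimated by edgeR and no library standing apart. It therefore cannot settle which tool suits these data, and the DESeq2 calls are given only as an alternative to the main test. All log2 fold changes below are edgeR's, mIFNalpha minus untreated, with their standard error. For genes at an unadjusted p below 0.05 the edgeR adjusted p lay between 0.754 and 0.892.

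**Figure D1:**
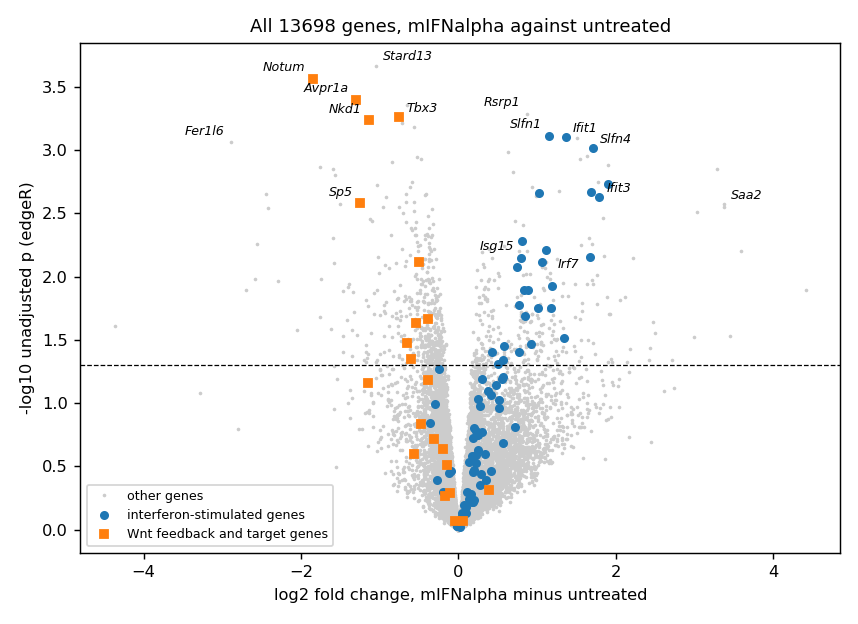
Log2 fold change (x axis) and -log10 of edgeR's unadjusted p (y axis) of 13698 genes, 3 mIFNalpha against 3 untreated libraries, with a dashed line at 0.05. Of 86 interferon-stimulated genes (circles) 27 lie above the line on the right, and of 22 Wnt genes (squares) 10 lie above it on the left.

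The receptor and its signalling chain were expressed in every library, and none of its 7 genes had an unadjusted p below 0.05. The receptor chain Ifnar1 had 82.0, 91.8 and 82.9 CPM in untreated and 79.9, 88.3 and 75.5 CPM in mIFNalpha libraries. The second chain, Ifnar2, had 42.4 to 45.7 CPM in untreated and 47.7 to 56.6 CPM in mIFNalpha libraries, and these values do not overlap. Stat2, a subunit of ISGF3, had 50.6 to 79.3 CPM in untreated and 77.2 to 82.4 CPM in mIFNalpha libraries. The DNA-binding subunit Irf9 had 19.9 to 30.2 and 26.7 to 27.9 CPM, the kinase Jak1 141 to 177 and 136 to 189 CPM, and the kinase Tyk2 21.2 to 26.3 and 22.1 to 27.5 CPM. For each of these 3 genes the groups overlap.

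Among 9 feedback genes, 1 had an unadjusted p below 0.05. This was Cish, a SOCS family inhibitor of cytokine receptors, with 1.80, 2.02 and 2.47 CPM in untreated and 2.82, 5.04 and 4.57 CPM in mIFNalpha libraries (0.98 ± 0.25, edgeR adjusted p = 0.754). Usp18, the protease that removes Isg15 and blocks Ifnar2, had 39.5 to 45.7 CPM in untreated and 38.6 to 42.7 CPM in mIFNalpha libraries. The kinase inhibitor Socs1 had 6.51, 7.60 and 9.62 CPM against 6.15, 14.5 and 14.6 CPM, with mIFNalpha replicate 1 below all untreated libraries. Socs3, another inhibitor of this family, had 102 to 183 and 138 to 186 CPM. The phosphatases Ptpn1, Ptpn2 and Ptpn6 and the STAT inhibitors Pias1 and Pias4 had overlapping groups.

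Of 7 interferon regulatory factors, Irf7 alone had an unadjusted p below 0.05. Irf7 amplifies type I interferon production and is itself an interferon-stimulated gene. It had 14.4, 30.4 and 28.2 CPM in untreated and 85.3, 38.2 and 40.7 CPM in mIFNalpha libraries (1.17 ± 0.37, edgeR adjusted p = 0.878). The highest value, in mIFNalpha replicate 1, was above all others, and the log2 fold change was 0.70 to 1.38 when single libraries were left out. Irf1, which responds to both interferon types, had 118 to 199 CPM in untreated and 91.7 to 214 CPM in mIFNalpha libraries, and Irf2, Irf3, Irf5 and Irf8 also had overlapping groups. Of 21 interferon ligand genes only Ifng had enough counts (0.471 to 0.578 CPM in untreated, 0.390 to 1.62 CPM in mIFNalpha libraries), and the other ligands had at most 2 counts in any of the 6 libraries.

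The interferon-stimulated genes were counted over 7 families together: Ifit, Oas, Schlafen, nucleic acid sensors, Parp, Trim and other effectors. Of 86 members with enough counts, 73 had a log2 fold change above 0, against 51.9% of all genes, and their median was 0.28 against 0.01 for all genes. At an unadjusted p below 0.05, 27 members (31.4%) were higher and 0 were lower, against 2.17% and 3.26% of all genes. In 30 members all mIFNalpha values lay above all untreated values, against 4.95% of all genes, and in 0 members below, against 5.21%. The 27 members were weakly expressed, with group means of 0.0951 to 8.45 FPKM in untreated and 0.328 to 15.2 FPKM in mIFNalpha libraries. Among the 19 members with a mean of at least 50 CPM, 0 had an edgeR p below 0.05, and their median log2 fold change was 0.04. Of the 27, mIFNalpha replicate 1 was the highest mIFNalpha library in 22, and untreated replicate 1 the lowest untreated library in 22. Untreated replicate 3 was the highest untreated library in 20. Macrophage markers leaned the same way, with 19 of 20 above 0, 1 at an unadjusted p below 0.05 and a median of 0.39, or 0.83 without untreated replicate 3. Their summed level was 425 to 748 CPM in untreated and 523 to 779 CPM in mIFNalpha libraries, and its part in the result was not tested. Of the 27 interferon-stimulated genes, 21 had a promoter in the RefSeq set, and 14 of these genes (66.7%) held the ISRE core. Of the other interferon-stimulated genes, 49 had a promoter and 21 (42.9%) held it. Without untreated replicate 1, 16 interferon-stimulated genes were higher at an unadjusted p below 0.05 in place of 27, and without mIFNalpha replicate 1, 20.

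The Ifit family, whose proteins bind viral RNA and block its translation, had 5 members with enough counts, and all 5 were higher without overlap. Ifit1 had 1.61, 2.12 and 3.44 CPM in untreated and 8.07, 4.87 and 5.54 CPM in mIFNalpha libraries (1.36 ± 0.30, edgeR adjusted p = 0.754). Ifit3 had 2.09, 2.05 and 5.24 CPM against 17.6, 7.80 and 7.08 CPM (1.79 ± 0.45, 1.25 without mIFNalpha replicate 1 and 2.38 without untreated replicate 3). In both genes untreated replicate 3 was the highest untreated library and mIFNalpha replicate 1 the highest of all. Ifit2 had 4.86, 6.29 and 12.8 CPM against 19.4, 14.9 and 16.1 CPM (1.07 ± 0.33). Ifit3b and Ifit1bl1 stayed below 5 CPM in all 6 libraries, with log2 fold changes of 1.91 ± 0.47 and 1.68 ± 0.42. The family lies in 1 cluster, from the start of Ifit2 at chr19:34550694-34576419 to Ifit1 at chr19:34640871-34650009 (mm10, GENCODE M21). Its copies resemble each other, so reads may be split between Ifit1 and Ifit1bl1 and between Ifit3 and Ifit3b, and their separate values are uncertain. Promoters of 4 of the 5 members held the ISRE core, as shown above for Ifit1 and Ifit3.

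The Schlafen family, regulators of lymphocyte growth and of translation, had 5 of 7 members higher at an unadjusted p below 0.05. Slfn4, which is induced in myeloid cells, had 4.38, 6.46 and 6.85 CPM in untreated and 27.9, 14.3 and 15.5 CPM in mIFNalpha libraries (1.71 ± 0.38, and 1.34 without mIFNalpha replicate 1). Slfn1 had 2.51, 2.29 and 4.44 CPM against 6.93, 6.32 and 7.29 CPM (1.15 ± 0.25). Slfn1 was therefore even across the mIFNalpha libraries, while Slfn4 was highest in replicate 1. Slfn8 (1.12 ± 0.33), Slfn2 (0.75 ± 0.23) and Slfn5 (1.18 ± 0.39) also had groups that did not overlap. The summed Schlafen level was 117, 115 and 144 CPM in untreated and 122, 182 and 153 CPM in mIFNalpha replicates 1, 2 and 3. In this sum mIFNalpha replicate 1 lay within the untreated range. Slfn3 (0.03) and Slfn9 (-0.28) had unadjusted p-values above 0.05. These genes are close copies in 1 cluster, between Slfn5 at chr11:82951349-82964840 and Slfn4 at chr11:83175186-83190216, so their separate values are uncertain.

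The Oas family makes a second messenger in response to double-stranded RNA. Of the 8 genes in its list, all 8 had a log2 fold change above 0 and 3 an unadjusted p below 0.05. Oas3 had 1.64, 4.34 and 4.20 CPM in untreated and 18.8, 7.46 and 6.22 CPM in mIFNalpha libraries (1.67 ± 0.50). Its log2 fold change ranged from 1.01 to 1.98 when single libraries were left out. Oasl2, an Oas relative, had 11.4, 18.1 and 25.0 CPM against 22.7, 36.9 and 33.2 CPM (0.77 ± 0.27), and its groups overlap because untreated replicate 3 exceeded mIFNalpha replicate 1. Oas2 had 1.93, 3.67 and 3.41 CPM against 7.65, 4.98 and 4.39 CPM (0.92 ± 0.38).

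Other effectors were mixed, with 25 of 32 above 0 and 7 at an unadjusted p below 0.05. Isg15, the ubiquitin-like modifier, had 5.06, 8 and 7.46 CPM in untreated and 14.9, 9.60 and 11.2 CPM in mIFNalpha libraries (0.80 ± 0.24, edgeR adjusted p = 0.862). Ifi44, an antiviral protein, had 3.96, 5.35 and 5.14 CPM against 12.2, 8.29 and 8.96 CPM (1.03 ± 0.26). Rsad2, or viperin, an enzyme that makes a chain-terminating nucleotide, had 2.93, 4.84 and 9.98 CPM against 23.9, 11.2 and 9.88 CPM (1.34 ± 0.54, 0.83 without mIFNalpha replicate 1 and 1.95 without untreated replicate 3). The groups of Isg15 and Ifi44 do not overlap, and those of Rsad2 do. Abundant effectors gave other values: the membrane protein Ifitm3, which blocks viral entry, had 222 to 346 CPM in untreated and 183 to 274 CPM in mIFNalpha libraries, and the tetherin Bst2 59.7 to 90.8 and 54.9 to 122 CPM.

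**Figure D2:**
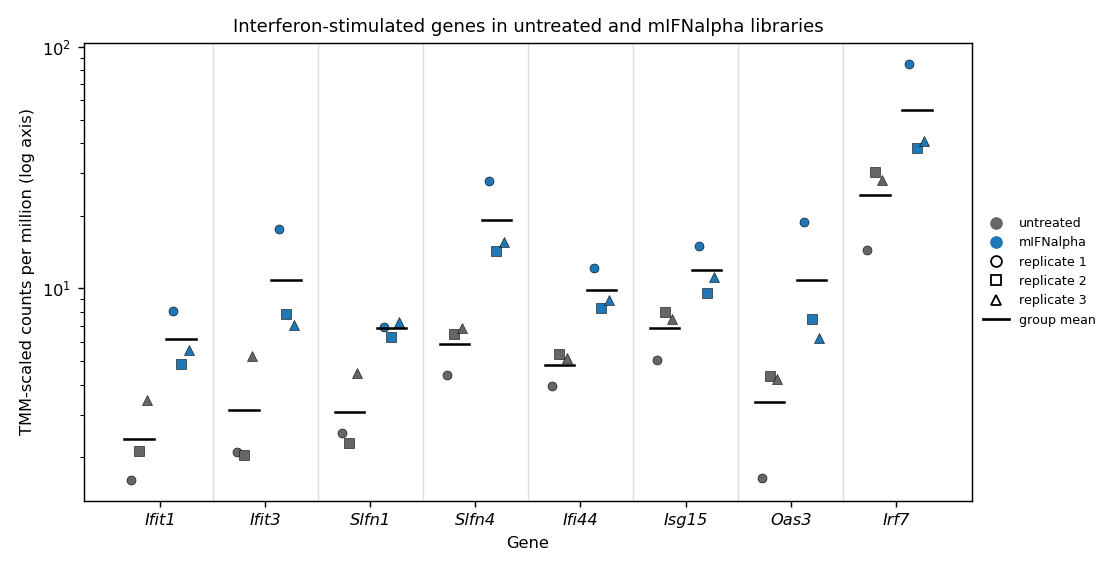
TMM-scaled counts per M (log axis) of 8 interferon-stimulated genes in each of 3 untreated (grey) and 3 mIFNalpha (blue) libraries, with the marker shape giving the replicate and the bar the group mean. The mIFNalpha points of these 8 genes lie above the untreated points, and replicate 1 is the highest mIFNalpha library in 7 of them and not in Slfn1.

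Nucleic acid sensors had 16 of 17 members above 0 and 5 at an unadjusted p below 0.05. The DNA sensor Ifi204 had 10.8, 14.3 and 17 CPM in untreated and 29.6, 22.3 and 21.9 CPM in mIFNalpha libraries (0.81 ± 0.23), and Dhx58, a helicase that tunes RNA sensing, had 2.38 to 4.17 against 5.27 to 7.05 CPM (0.84 ± 0.31). Ifi204 has close copies in Ifi203 and Ifi205, so its value is uncertain. The RNA-editing enzyme Adar and the RNA-activated kinase Eif2ak2 had overlapping groups, at 34.7 to 47.4 against 40.3 to 49.5 CPM and at 59.9 to 65.2 against 59.1 to 72.4 CPM. Parp genes were all above 0 (7 of 7, median 0.18) with 0 at an edgeR p below 0.05. Of 10 Trim genes, Trim30a, a restriction factor whose copy Trim30d makes its value uncertain, had 6.31, 10.1 and 15.0 CPM against 19.7, 17.9 and 18.3 CPM (0.83 ± 0.28).

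Genes that interferon gamma also controls had few members of small p, and several were low in mIFNalpha replicate 1. The GBP and IRG GTPases, which attack the vacuoles of intracellular parasites, had 17 of 17 members above 0. At an unadjusted p below 0.05, 1 (5.88%) was higher, against 2.17% of all genes. This was Gbp9 (15.0 to 27.6 against 26.3 to 31.8 CPM, 0.63 ± 0.26). The summed level of the GBP and IRG genes was 654 to 1206 CPM in untreated libraries. It was 666, 1308 and 1247 CPM in mIFNalpha replicates 1, 2 and 3. MHC class I genes, which present peptides to CD8 T cells, had 19 of 21 members above 0 with a median of 0.13, and only H2-Q6 had an unadjusted p below 0.05 (3.32, 5.01 and 7.97 against 13.4, 10.5 and 10.8 CPM). In 5 of the 21 (23.8%) all mIFNalpha values lay above all untreated values, against 4.95% of all genes. These were H2-K1, H2-D1, H2-Q6, H2-Q7 and H2-T24. In 1 (4.76%), Erap1, they lay below, against 5.21% of all genes. Of these genes H2-D1 lies outside the rule for named genes, and it was named after its value was seen. H2-Q6 belongs to a set of near-identical genes and its value is uncertain. The class I chain H2-K1 had 79.6, 92.5 and 170 CPM against 198, 194 and 218 CPM. Its partner B2m had 686 to 744 CPM in untreated libraries and 588, 920 and 1057 CPM in mIFNalpha replicates 1, 2 and 3. MHC class II genes had 10 of 11 members above 0, 0 at an edgeR p below 0.05, and a summed level of 745 to 1339 CPM against 389, 1649 and 1876 CPM.

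Of 10 chemokine genes, 9 were above 0. At an unadjusted p below 0.05, 3 (30%) were higher (Ccl2, Ccl7 and Ccl12), against 2.17% of all genes. Cxcl10, which draws activated T cells, had 15.6, 16.8 and 30.4 CPM in untreated and 14.2, 39.9 and 45.6 CPM in mIFNalpha libraries, and Cxcl9, which binds the same receptor, had 37.5 to 74.6 against 30.8 to 96.8 CPM. For both of these genes, unlike the next, mIFNalpha replicate 1 was the lowest of the 6 libraries. The monocyte chemokines Ccl2 (1.58, 2.62 and 4.32 against 5.97, 5.89 and 5.67 CPM, 1.04 ± 0.37) and Ccl7 (1.08 ± 0.36) did not overlap between groups. Of 14 checkpoint genes, 11 were above 0 and 0 had an edgeR p below 0.05. The PD-1 ligand gene Cd274 had 20.03 to 36.5 against 25.9 to 33.9 CPM, and Pdcd1, which encodes PD-1, had 1.95 to 2.34 CPM in untreated libraries and 1.08, 3.79 and 5.07 CPM in mIFNalpha replicates 1, 2 and 3.

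Wnt feedback and target genes were lower in mIFNalpha libraries, in even amounts across replicates. Of 22 members with enough counts, 20 had a log2 fold change below 0, against 48.1% of all genes, with a median of -0.49. At an unadjusted p below 0.05, 10 members (45.5%) were lower and 0 higher, against 3.26% and 2.17% of all genes, and in 10 members the mIFNalpha values lay below all untreated values, against 5.21%. Notum and Avpr1a were known to be lower in these data when the list was written. Without them 8 of 20 members were lower at that p and the median was -0.43. The rest of the list was also written with earlier results of these data known, so these counts are no independent support. Without single libraries, 7 to 11 members were lower at that p.

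The secreted and intracellular inhibitors were among the lower members. Notum, a secreted enzyme that inactivates Wnt ligands (chr11:120653788-120661175), had 209, 207 and 84.2 CPM in untreated and 30.2, 52.3 and 56.5 CPM in mIFNalpha libraries (-1.85 ± 0.35, edgeR adjusted p = 0.754). Nkd1, which inhibits Dishevelled, had 133, 145 and 87.1 CPM against 57.7, 53.6 and 54.7 CPM (-1.14 ± 0.24). In both genes untreated replicate 3 was the lowest untreated library and still lay above all mIFNalpha libraries. Axin2, a scaffold of the complex that degrades beta-catenin, had 205, 263 and 217 CPM against 177, 148 and 125 CPM (-0.60 ± 0.27). Znrf3 (-0.51 ± 0.15) and Rnf43 (-0.54 ± 0.20), ubiquitin ligases that remove the Wnt receptor, had 37.6 to 52.7 against 28.9 to 35.5 CPM and 181 to 204 against 122 to 150 CPM. Lgr5, the receptor for the R-spondins that counter these ligases, had 88.6 to 117 against 56.3 to 78.4 CPM (-0.65 ± 0.27). Lect2, Rnf43, Lgr5 and Axin2 are named here because their values were seen, outside the rule for named genes.

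Among transcription factors of the list, Sp5 and Tbx3 had an unadjusted p below 0.05, and Tcf7 and Lef1 did not. Sp5, which represses other Wnt targets, had 48.2, 60.0 and 31.1 CPM in untreated and 23, 17.3 and 18.4 CPM in mIFNalpha libraries (-1.25 ± 0.32, edgeR adjusted p = 0.759). Tbx3, a transcriptional repressor active in liver development, had 578, 532 and 437 CPM against 306, 325 and 286 CPM (-0.75 ± 0.16). The vasopressin receptor Avpr1a, expressed around the central vein, had 268, 205 and 132 CPM against 61.1, 89.9 and 94.1 CPM (-1.30 ± 0.26). Lect2, a secreted liver protein, had 34.9 to 36.0 CPM against 25.9 to 27.8 CPM (-0.39 ± 0.15). Other members gave no separation: beta-catenin itself, Ctnnb1, had 979 to 1217 CPM in untreated and 975 to 1036 CPM in mIFNalpha libraries, and the glutamine synthetase Glul 295 to 456 and 344 to 361 CPM.

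The promoter of Sp5 (chr2:70474673-70474972, plus strand, same source and window) is shown because it holds the TCF motif CTTTGAT, in capitals, 104 bases before the start.
Sp5: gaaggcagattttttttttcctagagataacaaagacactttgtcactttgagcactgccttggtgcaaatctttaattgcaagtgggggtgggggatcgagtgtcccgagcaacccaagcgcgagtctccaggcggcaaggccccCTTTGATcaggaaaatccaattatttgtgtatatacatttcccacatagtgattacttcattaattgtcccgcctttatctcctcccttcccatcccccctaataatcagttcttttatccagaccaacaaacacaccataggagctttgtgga
This motif, searched on both strands, occurred in 1225 of 32851 promoters (3.73%), in 3 of 13 Wnt members with a promoter in the table (23.1%), and in 1 of 70 interferon-stimulated genes (1.43%). The ISRE core occurred in 1 of these 13 Wnt members (7.69%).

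Stromal markers differed between the same libraries. All 17 fibroblast and 12 endothelial markers had enough counts. Of these, 16 of 17 and 12 of 12 had a log2 fold change above 0, against 51.9% of all genes. At an unadjusted p below 0.05, 0 fibroblast markers were higher and 1 (5.88%) lower by edgeR, and 1 endothelial marker (8.33%) was higher. Over all genes 2.17% were higher and 3.26% lower at that p. Summed over the fibroblast markers, untreated replicates 1, 2 and 3 had 842, 548 and 1956 CPM and mIFNalpha libraries 1531 to 1695 CPM, and the endothelial markers had 134 to 325 against 217 to 446 CPM, so the groups overlap. The endothelial median log2 fold change was 0.66. The fibroblast median was 0.50, and 1.11 without untreated replicate 3. Untreated replicate 3, the highest untreated library for both lists, was the lowest untreated library in 7 of the 10 lower Wnt members. Without it the median of the Wnt list was -0.55, and without untreated replicates 1 and 2 it was -0.39 and -0.42. The part of the stromal transcripts in the result was not tested.

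**Figure D3:**
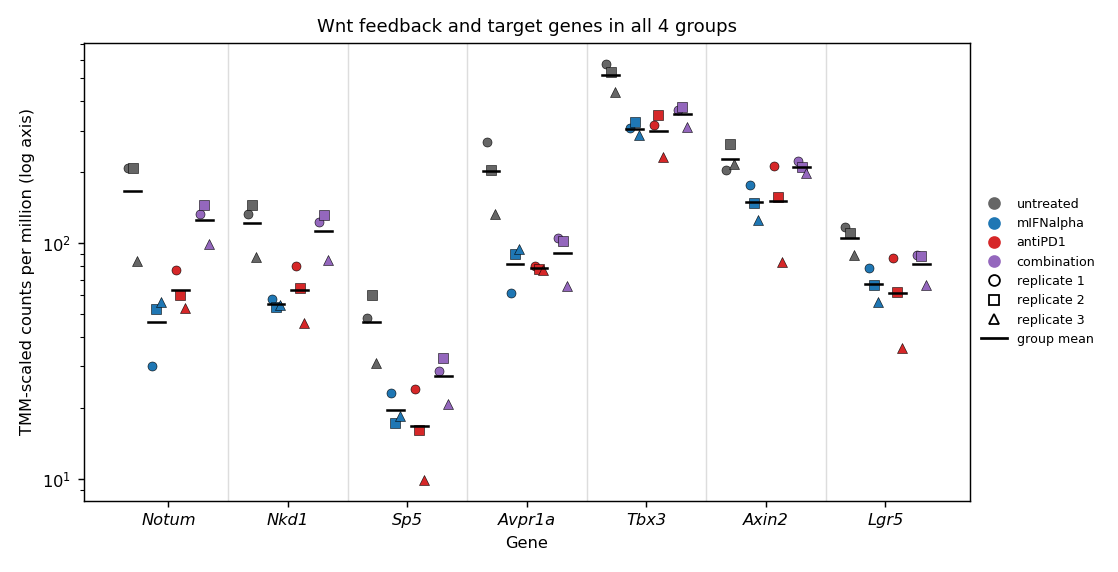
TMM-scaled counts per M (log axis) of 7 Wnt feedback and target genes in each of 12 libraries, coloured by group, with the marker shape giving the replicate and the bar the group mean. The mIFNalpha (blue) points of all 7 genes lie below the untreated (grey) points, while group means of the combination (purple) lie above those of antiPD1 (red).

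Cholesterol synthesis and acute phase genes were 2 further liver programmes in the lists. Sqle, squalene epoxidase of cholesterol synthesis, had 371, 346 and 271 CPM in untreated and 232, 220 and 226 CPM in mIFNalpha libraries (-0.54 ± 0.15). All 20 synthesis genes were below 0 and 2 had an unadjusted p below 0.05 (10%), against 3.26% of all genes. Of 21 acute phase genes, 18 were above 0 and 4 had an unadjusted p below 0.05 (19.05%), against 2.17%. These 4 were Saa1, Saa2, Orm1 and C3. C3 (0.98, and 1.35 without mIFNalpha replicate 1) lies at chr17:57203970-57228136, between Crb3 and Gpr108, which are described further below. The part of its position in this count was not tested. The serum amyloids Saa1 and Saa2 had the largest differences: Saa1 had 3.22, 11.7 and 4.20 CPM against 60.3, 47.2 and 49.3 CPM (3.04 ± 0.80). Saa2 had 1.80, 7.4 and 2.13 CPM against 41.3, 39.7 and 35.9 CPM (3.37 ± 0.87). They are near-identical copies and their separate values are uncertain. Orm1, another acute phase protein, was high in mIFNalpha replicate 1 only (266 CPM, against 49.8 and 47.1 in replicates 2 and 3 and 17.3 to 46.9 in untreated libraries), with a log2 fold change of 1.91 ± 0.85, and 0.59 without that library.

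Further genes with the smallest p-values and non-overlapping groups belonged to no common list. Stard13, a GTPase-activating protein, had 57.3, 47.8 and 53.4 CPM in untreated and 26.7, 27.9 and 21.9 CPM in mIFNalpha libraries (-1.05 ± 0.19, edgeR adjusted p = 0.754). Pllp, a myelin and epithelial membrane protein, had 46.4, 36.0 and 36.8 CPM against 24.6, 24.3 and 27.0 CPM (-0.65 ± 0.13). Pbx3, a homeobox partner protein, had 29.9 to 34.7 against 20.9 to 22.1 CPM (-0.56 ± 0.12). These 3 genes were even within each group. Fer1l6, a ferlin membrane protein, had 49.3, 30.9 and 6.06 CPM against 3.45, 4.90 and 3.34 CPM (-2.88 ± 0.63, and -3.36 without untreated replicate 3), so most of its difference lay in untreated replicates 1 and 2. The neutrophil chemokine Cxcl5 (-0.71 ± 0.15), the actin bundler Pls3 (-0.84 ± 0.20) and the kinase Rps6ka3 (-0.48 ± 0.11) were also lower without overlap. Higher without overlap were the zinc finger gene Zfp597 (7.34, 7.67 and 8.31 against 12.2, 12.3 and 11.6 CPM, 0.63 ± 0.14), the splicing-speckle protein Rsrp1 (0.88 ± 0.18) and Ahnak2 (0.94 ± 0.23). The matrix protease Mmp7, a Wnt target in intestine, had 5.99, 3.40 and 4.90 CPM against 31.4, 9.68 and 11.2 CPM (1.87 ± 0.46, and 1.13 without replicate 1), with the highest value in replicate 1.

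Cell cycle genes and markers of other cells set mIFNalpha replicate 1 apart from replicates 2 and 3. Summed over 31 cell cycle genes it had 1575 CPM, against 3347 to 3464 CPM in the other mIFNalpha and 3285 to 3972 CPM in untreated libraries. Summed over neutrophil markers it had 101 CPM, against 46.5 to 49.7 CPM and 32.0 to 53.1 CPM. The median over 18 adult hepatocyte genes, on the log2(CPM + 0.5) scale relative to the untreated mean, was 2.1 in replicate 1 and 0.05 and 0.04 in replicates 2 and 3. Their summed level, most of it Alb, was 12609 CPM in replicate 1, 10611 to 11392 CPM in replicates 2 and 3, and 11129 to 12786 CPM in untreated libraries. T cell markers ran the other way, with 108 CPM in replicate 1, 183 to 197 CPM in replicates 2 and 3 and 160 to 174 CPM in untreated libraries. On the same log2 scale the Ifit median was 1.62 in replicate 1 and 1.05 and 1.11 in replicates 2 and 3, and -0.40, -0.21 and 0.60 in the untreated libraries. The Schlafen medians were 1.06, 0.98 and 0.89 and the Wnt medians -0.43, -0.46 and -0.54 in mIFNalpha replicates 1, 2 and 3. Replicate 1 thus lay close to replicates 2 and 3 in both medians, though not in the summed Schlafen level. Without replicate 1 the Ifit median log2 fold change was 1.25 in place of 1.68, the cell cycle median -0.08 in place of -0.34, the neutrophil median 0.09 in place of 0.80 and the adult hepatocyte median -0.03 in place of 0.95.

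**Figure D4:**
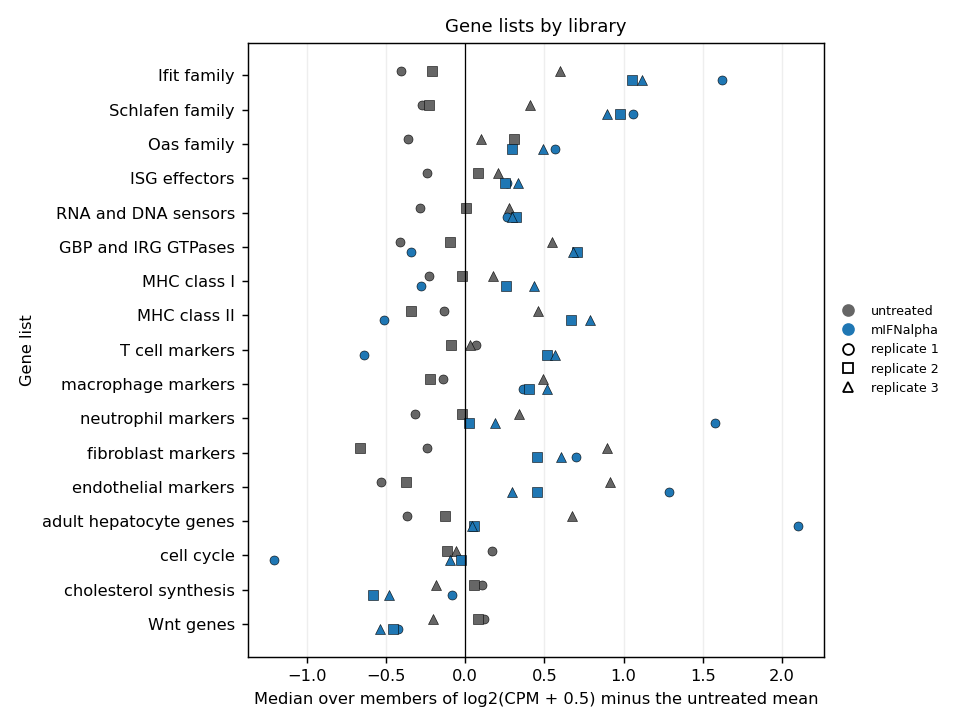
Median over the members of 17 gene lists of log2(CPM + 0.5) minus the untreated mean of each gene (x axis), for each of 3 untreated (grey) and 3 mIFNalpha (blue) libraries. The mIFNalpha points of the Ifit, Schlafen and Wnt lists lie apart from the untreated points, while replicate 1 lies far from replicates 2 and 3 in the cell cycle, adult hepatocyte, neutrophil and T cell lists.

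The combination was compared with antiPD1 to read mIFNalpha in the presence of the antibody, in libraries that the first comparison does not share. Here antiPD1 replicate 3 stood apart, at 85.5 on the first principal component against 22.4 and 8.18, with a summed macrophage level of 5262 CPM against 1319 to 1368 CPM in the other antiPD1 libraries. In it edgeR's adjusted p was above 0.05 for every gene (0 called, 0%), and 646 genes (4.72%) had an unadjusted p below 0.05, 281 higher (2.05%) and 365 lower (2.66%). Values did not overlap in 1047 genes that were higher (7.64%) and 956 that were lower (6.98%). DESeq2 called 15 of 9975 (0.15%) and limma 0. Interferon-stimulated genes had a median log2 fold change of 0.30, with 73 of 86 above 0 against 46.2% of all genes. At an unadjusted p below 0.05, 19 were higher and 2 lower, and without antiPD1 replicate 3 the median was 0.49 with 37 higher and 2 lower. The 27 members that were higher without the antibody were all above 0 here, and 9 of them had an unadjusted p below 0.05. Ifit1 had 5.36, 4.96 and 5.37 CPM in antiPD1 and 13.0, 9.15 and 10.4 CPM in combination libraries (1.05 ± 0.29), and Ifit3 had 5.53, 6.57 and 9.92 against 18.8, 13.2 and 13.2 CPM (1.04 ± 0.44). Slfn4 was high in antiPD1 replicate 3 (24 CPM, against 7.86 and 16.6) and overlapped the combination (17.9 to 20.9 CPM). The antiPD1 libraries themselves lay above untreated libraries. On the log2(CPM + 0.5) scale relative to the untreated mean, the interferon-stimulated medians were 0.43, 0.58 and 0.94 in antiPD1 replicates 1, 2 and 3. In mIFNalpha replicates 1, 2 and 3 they were 0.35, 0.33 and 0.33. The antiPD1 medians were 0.95 to 1.42 for Ifit and 1.08 to 1.95 for Schlafen genes.

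Wnt genes took the other direction in that comparison, with 17 of 22 above 0, 4 at an unadjusted p below 0.05 and a median of 0.27. Without antiPD1 replicate 3 these were 16, 3 and 0.17. The antiPD1 libraries already lay below the untreated ones, with 2624 to 3433 against 3673 to 4331 CPM summed over the Wnt list. The mIFNalpha libraries had 2989 to 3139 CPM. Combination libraries had 3440 to 3781 CPM, which overlaps the untreated range. On the log2(CPM + 0.5) scale relative to the untreated mean, the Wnt medians were -0.31, -0.42 and -0.72 in antiPD1 replicates 1, 2 and 3. Notum had 76.9, 60.2 and 52.8 CPM in antiPD1 and 132, 145 and 98.6 CPM in combination libraries (0.99 ± 0.34), and Nkd1 had 80.1, 64.2 and 45.9 against 122, 132 and 84.7 CPM (0.83 ± 0.24). All 10 members that were lower without the antibody were above 0 with it. The difference between the comparisons was tested as an interaction, which shares libraries with both. edgeR called 0 genes (0%) in it, with 817 (5.96%) at an unadjusted p below 0.05, 482 positive (3.52%) and 335 negative (2.45%). The smallest adjusted p was 0.143, that of Pllp. DESeq2 called 36 of 13679 genes (0.263%), 29 positive and 7 negative, of which 5 were Wnt members and 0 interferon-stimulated genes, and limma called 0. Of 22 Wnt members, 12 had a positive interaction at an unadjusted p below 0.05 and 0 a negative one. Of 86 interferon-stimulated genes, 1 was positive (Trim14, named after its value was seen) and 1 negative (Slfn4), or 3 and 3 with the replicate number as a block. Without antiPD1 replicate 3, 6 interferon-stimulated genes were positive and 1 negative, and their median interaction was 0.02 in place of -0.08. The Wnt counts without that library were again 12 and 0. The interaction contains the first comparison, so it is no independent support for members picked there. For Notum the interaction was 2.83 ± 0.49 (edgeR adjusted p = 0.491, DESeq2 adjusted p = 1.76e-05), and for Nkd1 1.97 ± 0.34 (0.491 and 9.25e-05).

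**Figure D5:**
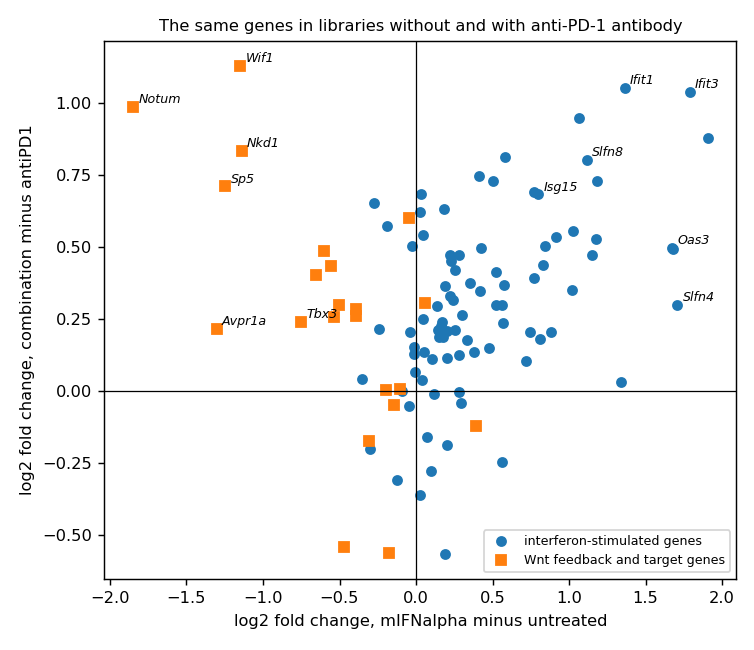
Log2 fold changes of 86 interferon-stimulated genes (circles) and 22 Wnt genes (squares), mIFNalpha minus untreated (x axis) and combination minus antiPD1 (y axis). Most circles lie in the upper right part, and the Wnt genes with the lowest values on the x axis lie in the upper left.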

How the data were processed

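RNA was sequenced from 12 samples, 3 in each of 4 groups taken from the labels. The submitters' processing notes name the mm10 assembly and the tools HISAT2 2.1.0, HTSeq and Cufflinks. For annotation, strand setting and each tool's role, the sources used here give nothing, so overlapping genes cannot be told apart. The authors deposited 1 whole-number count per gene and library, used for the main test, and FPKM values, used as an alternative. No library was dropped or imputed.

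The main test was edgeR's robust quasi-likelihood F test (version 4.0.16, R 4.3.3) on TMM-scaled counts of 12 libraries, with 1 mean per group. The Benjamini-Hochberg adjustment ran over 13698 genes, with a threshold of 0.05. On simulated data edgeR recovered 54.5% of 2-fold and 85.7% of 4-fold changes among 13698 genes, and DESeq2 62.5% and 91.1%. Alternatives were RLE size factors, no filter on low counts, filterByExpr, only the groups compared, a replicate block, DESeq2 1.42.0, limma 3.58.1 on log2(FPKM + 1) and log2(FPKM + 0.1), and each library left out.

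The genes and lists were chosen with earlier results of these data known. Named genes were up to 12 a direction with the smallest p, at least 5 CPM and no overlap, up to 6 of each list, the receptor, feedback and IRF genes, a few chosen markers, and the 5 smallest adjusted p-values of the alternatives; the text gives examples of each. Same-numbered untreated and mIFNalpha libraries had correlations of deviations of -0.281, -0.084 and -0.163, and same-numbered antiPD1 and combination libraries 0.00, 0.54 and -0.16. The main test did not pair libraries by number, and these few values cannot exclude a pairing. Same-numbered mIFNalpha and combination libraries, which both enter the interaction, had 0.31, 0.21 and 0.12. Untreated and antiPD1 libraries, which also enter it, had -0.023, 0.38 and 0.46. For mIFNalpha and antiPD1 the values were 0.36, 0.30 and 0.009, and for untreated and combination -0.25, 0.17 and -0.065. The block is given beside the interaction where it changes a count. Symbols matched GENCODE M21 for 20665 of 21878 genes. The floor of 3 counts covers counting error only, and standard errors measure the spread between libraries.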

Additional observations from a re-analysis of the deposited data

Results flagged for a closer look

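For 6 of the named genes the 3 values of each group did not overlap in either comparison, and the direction with the antibody was opposite to that without it. Their interaction (log2 fold change of combination minus antiPD1, less that of mIFNalpha minus untreated) was 2.83 for Notum, 1.97 for Nkd1 and 0.80 for Znrf3, which are Wnt feedback genes. It was 1.43 for Pllp, 1.33 for Pls3 and -1.16 for Ahnak2. None passed edgeR's interaction test, with adjusted p-values of 0.491 for Notum and Nkd1, 0.738 for Znrf3, 0.143 for Pllp, 0.491 for Pls3 and 0.793 for Ahnak2. DESeq2's adjusted p-values were 1.76e-05, 9.25e-05, 0.21, 1.22e-07, 0.0123 and 0.138 in the same order. The genes were picked for opposite separation in the libraries that enter the interaction, so these p-values are no independent support. Over all 13698 genes such opposite separation was found in 130 genes (0.949%), and separation in the same direction in 69 (0.504%).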

How the results depend on the processing

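Of the named genes, the 57 chosen for a printed fold change were refitted in 14 settings (798 fits). No sign changed, and 22 of these fits passed the threshold where the reported fit did not. DESeq2 gave 18 of them. The other 4 came without mIFNalpha replicate 1, where Gpr108 (0.96, edgeR adjusted p = 0.0184), Trip10 (1.42, 0.0274), Nudt12 (1.24, 0.0274) and Crb3 (1.12, 0.0456) passed. These 4 were named after their values were seen. They all lie on chromosome 17, from Crb3 at chr17:57059105-57065918 to Nudt12 at chr17:58999618-59013372, and the acute phase gene C3 lies among them. Calls therefore numbered 0 to 4 without single libraries and 25 with DESeq2. In the interaction they were 0 to 1 (Gpr108, without mIFNalpha replicate 1) and 36 with DESeq2, and in combination against antiPD1 15 with DESeq2. Genes at an unadjusted p below 0.05 numbered 336 without untreated replicate 1, 413 without replicate 2 and 1592 without replicate 3, against 743, and 336 to 1592 over all single libraries. Interferon-stimulated genes at that p were 16 to 37, lowest without untreated replicate 1. On the log2(FPKM + 1) scale, which understates low genes, the Ifit median was 0.74 and the Wnt median -0.33. The replicate block in edgeR gave 0 calls and 870 genes at that unadjusted p. With the block the interaction also had 0 calls, and combination against antiPD1 had 0. An interaction fit needs all 4 groups, so it was not run on the compared ones alone. The median of adult hepatocyte genes turned to -0.03 without mIFNalpha replicate 1. Genes near 3 counts a library were too shallow for a fold.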

Other observations

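Checkpoint, MHC class II and T cell lists had medians above 0 without the antibody (0.20, 0.31 and 0.35) and below 0 with it (-0.32, -0.39 and -0.60 in combination against antiPD1). The latter signs rest on antiPD1 replicate 3, which stood apart: without it the medians were 0.32, 0.55 and 0.14. No member of these 3 lists had an unadjusted edgeR p below 0.05 in mIFNalpha minus untreated. Cell cycle genes had the opposite signs (-0.34 and 0.29), with 1 of 31 and 31 of 31 members above 0. Without antiPD1 replicate 3 the second median was 0.30, and without mIFNalpha replicate 1 the first was -0.08. Across all 13698 genes the log2 fold changes of both comparisons, which share no library, had a Pearson correlation of -0.14 and a Spearman correlation of -0.18. Without antiPD1 replicate 3 they were 0.19 and 0.13, so the sign of this relation rests on that library. Genes are not independent replicates.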
